A study of Rattus norvegicus with 18 samples.

Results

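Plantain flour in healthy kidney was examined as the contrast between male rats without diabetes, aged 23 weeks, that received the high flour dose (NH) and rats of the same description that received water (NC). All 29 features of the deposited count table were taken, and the 12 genes on the mitochondrial chromosome and the 16 named nuclear genes were ranked apart within each library. The contrast rests on 6 of the 18 kidney RNA libraries of the series, 3 in NC and 3 in NH. The labels give no amount in g per kg for NH, and they name neither strain nor feeding period. Male diabetic rats of the same age, on water (DM) or on the high dose (HP, 4 g per kg body weight as the highest dose of the design text), with 3 libraries each, were used to compare the response to the high dose. How diabetes was brought about is not given in the sources used here. Whether each replicate was its own animal is not stated, and all p-values below therefore speak only of how much these libraries scattered.

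The kidney cortex consists largely of proximal tubules, which reclaim filtered phosphate, sugars and amino acids, make glucose, and draw their energy almost wholly from mitochondrial respiration. The mitochondrial genome encodes core subunits of respiratory complexes I, III and IV and of ATP synthase, and its genes are copied as long joint transcripts that are then cut apart. Nuclear genes supply nearly all other proteins, among them tubular transporters and the enzymes that make and use glutathione. Of 10 proximal tubule markers, 8 were among the listed features, in every library. Gene lists were chosen with earlier results of these data known, so that overlap does not check the tissue. None of 15 markers of other renal, vascular or blood cells was among the 29 features analysed here, so the makeup of the tissue could not be followed. In bulk RNA, fewer cells of a type and less RNA per cell cannot be told apart.

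Library depth is unknown, because the 29 features analysed here are not a whole library. Their counts summed to between 8576253 and 10306858 in the 6 healthy libraries, so that counting error was small beside the spread between libraries. Shares carry 95% Wilson intervals, which cover counting error only. Because total RNA content cannot be judged from such sums, the results lead with quantities that need no scaling between libraries: the ratio of the classes, ranks, and each gene's count divided by the geometric mean of its class in the same library (its relative level).

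Nuclear genes took a smaller part of the listed counts in flour-fed healthy kidneys. The 16 nuclear genes summed to 584008, 587951 and 668928 counts in NC and to 416591, 478879 and 511095 in NH, with no overlap. The 12 mitochondrial genes summed to 8086913, 7968719 and 8437427 counts in NC and to 8870049, 8027700 and 9666237 in NH, and these ranges overlapped. Taken singly, 11 of the 16 nuclear genes had counts without overlap, all lower in NH. Of the 12 mitochondrial genes 4 did, all higher in NH. The mitochondrial to nuclear ratio was 13.8, 13.6 and 12.6 in NC and 21.3, 16.8 and 18.9 in NH. Every NH library was above every NC library, and NH replicate 1 was the highest. The difference was 0.50 on the log2 scale (SE 0.11), 1.42-fold, with p = 0.1 in a two-sided exact permutation test, which can give no smaller value with 3 libraries a group. As a share, the mitochondrial genes made up 93.02% ± 0.32 in NC and 94.95% ± 0.57 in NH (SD, n = 3). In NH replicate 1 the share was 95.5%, with an interval of 95.501 to 95.527%. With Gclc left out of the nuclear sum the log2 difference was 0.44, and with COX1 left out of the mitochondrial sum it was 0.45.

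**Figure D1:**
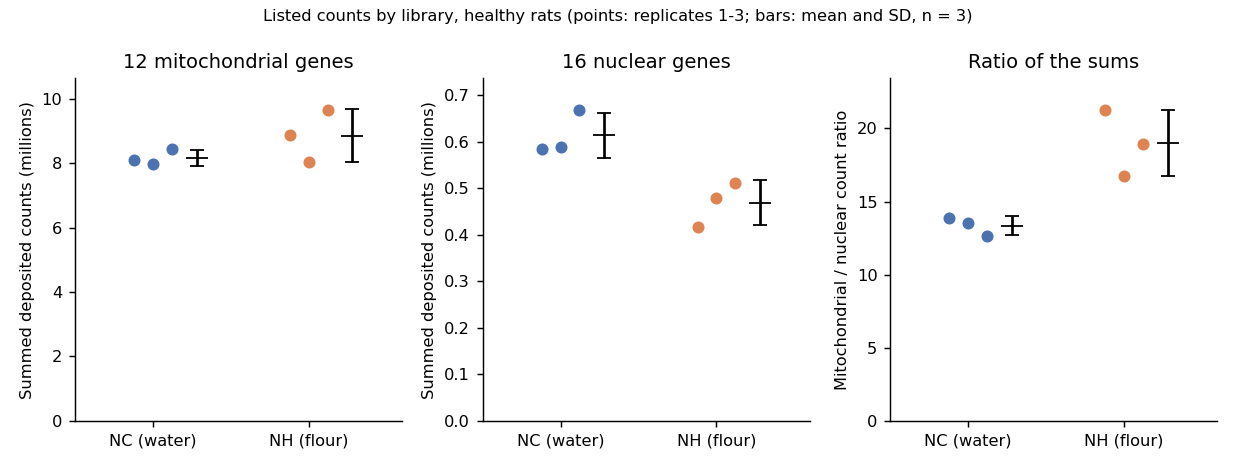
Deposited counts summed over the 12 mitochondrial genes (left), summed over the 16 nuclear genes (centre) and their ratio (right) in each healthy library, with points for replicates and bars for mean and SD. The nuclear sums of NH, 416591 to 511095, lie below all NC sums, and the NH ratios, 16.8 to 21.3, lie above the NC ratios.

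Within the nuclear class, 8 of 16 genes held ranks in NH that did not overlap their ranks in NC. The 4 that moved up were Gpx3, Pck1, Slc34a1 and Miox, and Gclc, Glul and Eef1a1 were among the 4 that moved down. No mitochondrial gene did so, and 4 of the 12 (COX1, CYTB, COX2 and ND5) kept 1 rank in all 6 libraries. Gclc was first among nuclear counts in every NC library and at rank 3 in every NH library. Pck1 went from rank 15, 14 and 14 in NC to 10, 9 and 9 in NH, and Slc34a1 from 12 in each NC library to 9, 7 and 7. Glul went the other way, from 11, 10 and 10 to 14, 13 and 13. These are ranks of raw counts, in which long genes stand higher. On counts per kilobase of the deposited gene length, Gpx3 was first among nuclear genes in all 6 libraries. Ranks per kilobase were free of overlap for 7 genes, among them Pck1, Cyp4a2, Hao2 and Slc34a1, which moved up, and Gclc and Glul, which moved down. Hao2 went from 5, 5 and 6 in NC to 4 in each NH library, although its relative level fell. Eef1a1, which moved down by raw counts, stood at 6, 6 and 5 in NC and at 5 in each NH library. Per kilobase, Gclc stood at rank 4 in each NC library and at 6, 8 and 7 in NH.

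Relative levels were tested with edgeR's quasi-likelihood F test, in 1 fit over all 18 libraries with each gene offset by its class mean. Of 28 genes, 19 (67.9%) passed a Benjamini-Hochberg adjusted p of 0.05, 8 higher (28.6%) and 11 lower (39.3%) in NH. A relative level is a change against the rest of its class, so a strong change of some members moves the reference of the others. Of the 19 calls, 11 held in all of 12 alternative settings, 5 higher (ND5, Gpx3, Pck1, Cyp4a2 and Slc34a1) and 6 lower (among them COX2, COX3, Gclc, Glul and Eef1a1). The same counts scaled between libraries by trimmed mean of M-values (TMM) gave 15 of 29 features (51.7%), 6 higher (20.7%) and 9 lower (31.0%). That division followed the scaling: median-of-ratios factors gave 14 higher and 7 lower, against 16 and 7 with the nuclear geometric mean as library size, and 2 and 9 unscaled. The median log2 change of all 29 features was -0.02, 0.28, 0.38 and -0.03 in these 4 scalings. Under all 4 of them, 9 features (31.0%) were called in 1 direction, 2 higher (6.90%, ND4 and ND5) and 7 lower (24.1%). Of these, ND4 dropped out without NC replicate 3 or NH replicate 1, ND5 without NH replicate 1, and Aadat without NC replicate 1, NC replicate 2, NH replicate 2 or NH replicate 3.

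**Figure D2:**
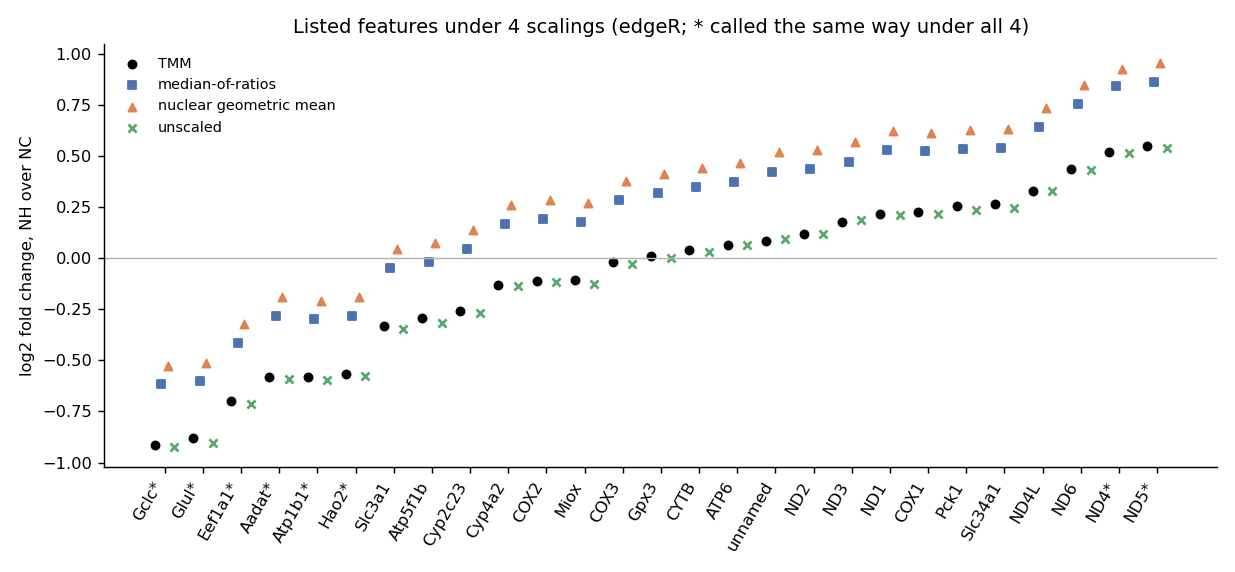
Log2 fold change of NH over NC by edgeR for the features reported, in order of the TMM value, with a symbol for each of 4 scalings. Changing the scaling shifts all features together, and the genes at the left marked with an asterisk stay below 0 and ND4 and ND5 above 0 in each.

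Gclc fell, and Gpx3 rose relative to its class. Gclc encodes the catalytic subunit of glutamate-cysteine ligase, the first enzyme of glutathione synthesis. It had 77862, 77749 and 84984 counts in NC and 40066, 40880 and 45654 in NH. All NH libraries were far below all NC libraries. Gclc fell under each scaling, between 1.44-fold and 1.90-fold (largest adjusted p 0.000231 by edgeR), and its share of the nuclear counts went from 13.1% ± 0.336 to 9.03% ± 0.547 (SD, n = 3). Relative to the nuclear class it was -0.53 in log2 (SE 0.086, adjusted p = 7.4e-05 by edgeR). Gpx3, the secreted glutathione peroxidase made in the proximal tubule, had 54320, 56545 and 62743 counts in NC and 60453, 53642 and 59537 in NH, and these overlapped. Relative to the nuclear class Gpx3 rose by 0.41 in log2 (SE 0.081, adjusted p = 0.00038 by edgeR), against a TMM value of 0.01 that did not pass. Without NH replicate 1 the class-relative value was 0.27 and still passed. The ratio of Gpx3 to Gclc counts, which needs no scaling, was 0.698, 0.727 and 0.738 in NC and 1.51, 1.31 and 1.30 in NH. No other gene of the glutathione list was among the features analysed here (2 of 7).

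Glul and Aadat, the amino acid enzymes of the list, were both lower. Both were among the 11 of 16 nuclear genes whose counts fell without overlap. Glul encodes glutamine synthetase, which joins ammonia to glutamate. Its counts were 26342, 27557 and 32779 in NC and 12374, 17495 and 16483 in NH, with NH replicate 1 lowest and no overlap. Glul fell between 1.43-fold and 1.87-fold over the scalings (largest adjusted p 0.000996 by edgeR) and by 0.51 in log2 relative to the nuclear class (SE 0.061, adjusted p = 4.6e-06). Aadat encodes an aminotransferase of lysine and kynurenine breakdown. It had 35582, 36140 and 39525 counts in NC and 23595, 23141 and 27133 in NH, again without overlap. Its class-relative fall was small, at 0.19 in log2 (SE 0.070, adjusted p = 0.023 by edgeR). That call was lost without NC replicate 1, NC replicate 2 or NH replicate 2, and in the 6 healthy libraries alone. It was also lost with the median-of-ratios factors of the class as reference. Its log2 values ran from -0.26 to -0.12 over the alternatives, with adjusted p up to 0.14 by edgeR.

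Atp1b1 and the elongation factor Eef1a1 fell as well. Atp1b1, the sodium pump subunit that brings the pump to the membrane, had 20624, 19959 and 22443 counts in NC and 11484, 15184 and 14987 in NH. All NH libraries were below all NC libraries, and NH replicate 1 was the lowest. Atp1b1 fell between 1.16-fold and 1.51-fold over the scalings (largest adjusted p 0.00355 by edgeR). Relative to the nuclear class it fell by 0.21 in log2 (SE 0.053, adjusted p = 0.0028 by edgeR). Eef1a1, which carries aminoacyl-tRNA to the ribosome, had 33821, 33839 and 38399 counts in NC and 18343, 22817 and 23427 in NH. Its relative level was 1.03, 1.02 and 1.01 in NC and 0.802, 0.833 and 0.817 in NH (log2 -0.32, SE 0.041, adjusted p = 5.6e-06 by edgeR).

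Slc34a1 and Pck1 stood out upward within the nuclear class. Slc34a1, the sodium-phosphate cotransporter of the proximal tubule brush border, had 22248, 21887 and 26501 counts in NC and 21300, 31690 and 30685 in NH. These counts overlapped, because NH replicate 1 was low. Its relative level was 0.678, 0.662 and 0.700 in NC and 0.931, 1.16 and 1.07 in NH, with no overlap. Slc34a1 rose by 0.63 in log2 relative to the class (SE 0.081, adjusted p = 5.6e-06 by edgeR). Pck1, the rate-limiting enzyme of gluconeogenesis, had 20522, 20158 and 24273 counts in NC and 20842, 27560 and 28146 in NH. Its relative level was 0.625, 0.610 and 0.641 in NC and 0.911, 1.01 and 0.982 in NH. Every NH library was above every NC library on that scale. Pck1 rose by 0.63 in log2 (SE 0.039, adjusted p = 8.1e-10 by edgeR). Neither Slc34a1 nor Pck1 passed under TMM (log2 0.26 and 0.25, adjusted p of 0.296 and 0.171 by edgeR), while both passed with median-of-ratios factors (0.54 each).

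The other apical transporter did otherwise. Slc3a1, a subunit of the cystine transporter on the same membrane, had 41441, 41250 and 47684 counts in NC and 28567, 35727 and 38352 in NH. Its relative level was 1.26, 1.25 and 1.26 in NC and 1.25, 1.30 and 1.34 in NH and did not pass (log2 0.05, adjusted p = 0.263 by edgeR). The ratio of Slc34a1 to Slc3a1 counts was 0.537, 0.531 and 0.556 in NC and 0.746, 0.887 and 0.800 in NH.

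Gclc, Eef1a1, Pck1 and Slc34a1 are shown by promoter as examples, a pair in each direction, of genes whose class-relative calls held in all 12 alternative settings; the pairs were picked after their values were seen. The windows run from 250 bases before to 50 bases after an annotated start and come from RefSeq on build GRCr8, which held a window for 13 of the 16 nuclear genes. Capitals mark matches on either strand to the TATA box (TATAAA), to the GC box (GGGCGG) or to the nuclear receptor half-site (AGGTCA). The CCAAT box and the core of the antioxidant response element (TGACNNNGC) were searched too. Gclc lies at chr8:87510226-87510525 on the plus strand, Eef1a1 at chr8:88225020-88225319 on the minus strand, Pck1 at chr3:182348322-182348621 on the plus strand and Slc34a1 at chr17:9238934-9239233 on the minus strand.
Gclc: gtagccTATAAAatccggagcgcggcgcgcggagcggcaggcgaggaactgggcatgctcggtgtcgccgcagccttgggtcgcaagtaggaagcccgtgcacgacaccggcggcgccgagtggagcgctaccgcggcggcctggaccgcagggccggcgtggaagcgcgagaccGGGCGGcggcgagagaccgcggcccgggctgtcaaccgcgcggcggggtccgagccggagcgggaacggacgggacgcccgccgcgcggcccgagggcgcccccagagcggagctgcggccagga
Eef1a1: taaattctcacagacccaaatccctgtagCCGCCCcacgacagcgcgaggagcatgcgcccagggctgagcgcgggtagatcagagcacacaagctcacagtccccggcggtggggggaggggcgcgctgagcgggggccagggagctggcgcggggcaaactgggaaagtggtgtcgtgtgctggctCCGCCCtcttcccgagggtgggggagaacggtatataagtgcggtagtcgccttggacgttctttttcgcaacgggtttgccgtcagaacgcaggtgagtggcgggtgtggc
Pck1: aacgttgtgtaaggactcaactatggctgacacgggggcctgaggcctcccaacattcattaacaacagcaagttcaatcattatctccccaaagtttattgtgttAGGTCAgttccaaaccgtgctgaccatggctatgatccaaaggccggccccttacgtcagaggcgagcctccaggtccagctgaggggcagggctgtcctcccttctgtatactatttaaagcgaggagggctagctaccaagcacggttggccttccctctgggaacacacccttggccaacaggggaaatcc
Slc34a1: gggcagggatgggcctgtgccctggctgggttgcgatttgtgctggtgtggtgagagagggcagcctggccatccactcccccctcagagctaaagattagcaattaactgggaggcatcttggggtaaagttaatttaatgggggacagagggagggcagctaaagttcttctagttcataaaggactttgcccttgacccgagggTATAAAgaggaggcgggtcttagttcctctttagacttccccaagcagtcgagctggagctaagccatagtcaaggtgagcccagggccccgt
The Gclc and Eef1a1 windows held 1 and 2 GC boxes and had a GC content of 76.7% and 64.7%, and the Pck1 and Slc34a1 windows held none, at 53.3% and 54.7%. That contrast did not extend to the other windows: Gpx3, higher within its class, had a GC box at a GC content of 54.7%, while Hao2 and Aadat, which fell, had none at 37.0% and 62.3%. A TATA box was in the Gclc and Slc34a1 windows and a nuclear receptor half-site in that of Pck1. Neither the CCAAT box nor the antioxidant core was in any of the 4. Of all 33469 windows, 33.1% held a GC box, 14.2% a TATA box, 16.2% the half-site, 37.5% a CCAAT box and 12.1% the antioxidant core. A match is a run of letters and not a known site.

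The oxidases and cytochromes P450 were split. Hao2, a peroxisomal oxidase of hydroxy acids, had 56113, 54098 and 60820 counts in NC and 31793, 38604 and 44252 in NH, with no overlap. Hao2 fell between 1.14-fold and 1.49-fold over the scalings (largest adjusted p 0.00394 by edgeR), and by 0.19 in log2 relative to its class. The class call of Hao2, and that of Atp1b1, was lost with the median-of-ratios factors of the class as reference (adjusted p of 0.0655 and 0.067 by edgeR). Miox, which opens the ring of myo-inositol, had 27434, 29290 and 35073 counts in NC and 22936, 30825 and 30359 in NH, overlapping. Its relative level was 0.835, 0.886 and 0.926 in NC against 1.00, 1.12 and 1.06 in NH, a rise of 0.27 in log2 (SE 0.088, adjusted p = 0.015 by edgeR). That call was lost without NC replicate 1 or NH replicate 2 (highest adjusted p 0.0609 by edgeR). Cyp4a2, an omega-hydroxylase of fatty acids, had 59515, 57369 and 64893 counts in NC and 51226, 51508 and 62611 in NH. Against its class Cyp4a2 rose by 0.26 in log2 (SE 0.055, adjusted p = 0.00067 by edgeR). Under TMM the log2 values of Miox and Cyp4a2 were below 0, at -0.11 and -0.13, and did not pass. Cyp2c23, an epoxygenase of arachidonic acid, had 14432, 14868 and 15947 counts in NC and 12902, 11539 and 13085 in NH. With TMM factors Cyp2c23 fell by 0.26 in log2 (SE 0.081, adjusted p = 0.013 by edgeR), a call lost without NH replicate 3 and not made in any other of the 4 scalings. Relative to the class it was at 0.14 and did not pass.

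**Figure D3:**
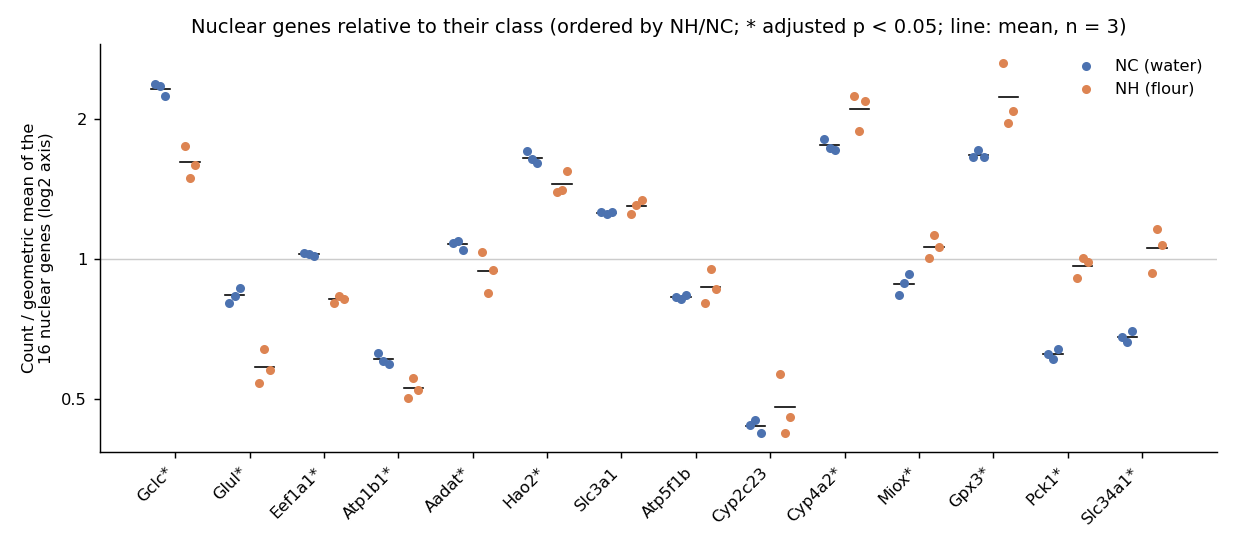
Relative level (count divided by the geometric mean of the 16 nuclear genes, log2 axis) of the nuclear genes reported in the NC and NH libraries, ordered by log2 fold change, with lines for the mean. The genes from Gclc to Hao2 at the left and from Cyp4a2 to Slc34a1 at the right passed the test, and Gclc moves from 2.24 to 2.37 in NC to 1.49 to 1.75 in NH.

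Mitochondrial genes also shifted against each other. The 7 listed ND genes, which encode complex I subunits, made up 17.2, 17.8 and 17.5% of mitochondrial counts in NC and 20.9, 17.9 and 18.8% in NH, where NH replicate 2 was just above the NC libraries. ND5, ND4 and ND6 rose relative to the class, and ND1, ND2, ND3 and ND4L did not pass. ND5 had 176138, 179162 and 202672 counts in NC and 294695, 243754 and 271316 in NH, and all NH libraries were higher. Its log2 value was 0.34 within the class (SE 0.070, adjusted p = 0.00057 by edgeR), and its fold was 1.45 to 1.94 over the scalings. The class-relative call of ND5 held without any 1 of the 6 healthy libraries.

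ND4 and ND6 carry limits of counting. ND4 had 57772, 70129 and 54065 counts in NC and 101533, 73976 and 84496 in NH, with no overlap in counts, an overlap in relative level, and a TMM value of 0.52 in log2 (SE 0.14, adjusted p = 0.0058 by edgeR). An unnamed feature, placed on chromosome 20 from 19483978 to 19485846, is annotated in the table with a protein match to NADH dehydrogenase subunit 4. It had 111700, 93480 and 113316 counts in NC and 140919, 69674 and 129526 in NH, more than ND4 in every library except NH replicate 2. How far its sequence matches ND4 was not checked by alignment, so whether reads were split between them was not tested. Summed, ND4 and this feature had 169472, 163609 and 167381 counts in NC and 242452, 143650 and 214022 in NH, which overlapped. The call of ND4 was then lost under TMM (log2 0.31, adjusted p = 0.127 by edgeR) and within the class (0.07, adjusted p = 0.68). Its class-relative call was also lost in the 6 healthy libraries alone and without NC replicate 1, NC replicate 3 or NH replicate 1, in 5 of 12 settings in all. ND6 lies on the minus strand, overlaps ND5 by 23 bases, and was counted from libraries that do not mark strand, so its reads cannot be told from those of the opposite strand. ND6 had 41475, 42466 and 47648 counts in NC and 65862, 48301 and 63181 in NH, and its class-relative rise of 0.22 in log2 (SE 0.088, adjusted p = 0.033 by edgeR) was lost without any of NC replicates 1 and 2 or NH replicates 1 and 3.

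COX2 and COX3, core subunits of cytochrome c oxidase (complex IV), fell relative to the mitochondrial class. COX2 had 767707, 763066 and 785910 counts in NC and 722396, 636458 and 776899 in NH. The counts overlapped, but the relative level was 2.38, 2.34 and 2.30 in NC against 1.83, 1.92 and 1.87 in NH. COX2 fell by 0.32 in log2 within the class (SE 0.050, adjusted p = 5e-05 by edgeR) and COX3 by 0.23 (SE 0.059, adjusted p = 0.003). Scaled between libraries, the direction depended on the scaling. COX2 was at -0.11 and COX3 at -0.02 under TMM, where neither passed. With median-of-ratios factors they were at 0.19 and 0.28, and COX3 passed as higher. COX1, the catalytic subunit and the gene with the most counts, had 2659549, 2516896 and 2688229 counts in NC and 2844448, 2922043 and 3382727 in NH. All NH libraries were higher in counts, but COX1 did not pass within the class (log2 0.02, SE 0.069). The ratio of COX1 to COX2 counts was 3.46, 3.30 and 3.42 in NC and 3.94, 4.59 and 4.35 in NH. CYTB of complex III and ATP6 of ATP synthase had class-relative values of -0.17 and -0.14 (adjusted p of 0.015 and 0.017 by edgeR). Both calls were lost with the class sum or the median-of-ratios factors of the class as reference. The call of ATP6 was also lost without NC replicate 1, and that of CYTB without NC replicate 3 or NH replicate 3. Atp5f1b, the nuclear beta subunit of ATP synthase, had 27183, 27082 and 31710 counts in NC and 18335, 26078 and 24680 in NH and did not pass in either test (log2 -0.29 under TMM, 0.07 within the nuclear class).

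**Figure D4:**
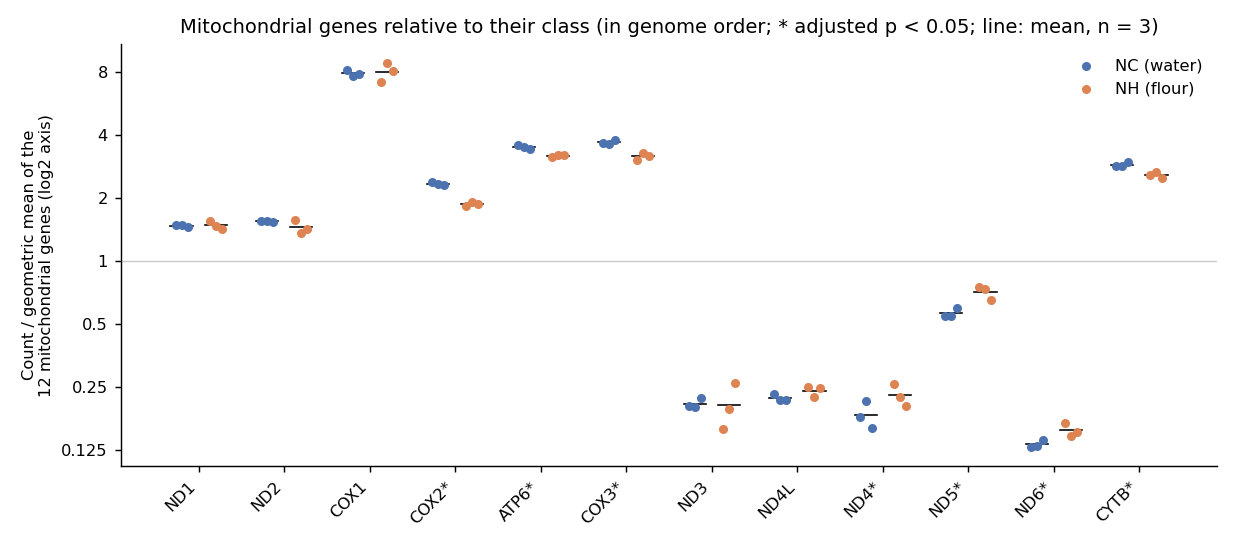
Relative level (count divided by the geometric mean of the 12 mitochondrial genes, log2 axis) of each mitochondrial gene in the NC and NH libraries, in their order along the mitochondrial genome, with lines for the mean. COX2 lies at 2.30 to 2.38 in NC and 1.83 to 1.92 in NH, while ND3 spreads widely among the NH libraries.

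The NH libraries differed more among themselves than the NC libraries did. A chi-square over the 29 features gave 951 to 3102 per degree of freedom between NH replicates and 239 to 383 between NC replicates. NH replicate 1 had the largest mitochondrial share, the smallest nuclear sum and the largest complex I share. ND3, a short complex I gene, had 61957, 64445 and 108080 counts in NH, where replicate 3 was far above the others, against 65489, 65453 and 75254 in NC. Gpx3 had a relative level of 2.64 in NH replicate 1 and of 1.96 and 2.08 in the others. The lower nuclear sum moved with every nuclear gene that fell in counts. Its part in those results was not tested. The class-relative values divide by the nuclear geometric mean, which averaged 34592 in NC and 26310 in NH, without overlap. A nuclear gene whose counts held level therefore rises on that scale.

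The high dose was also given to diabetic rats, and the response was set against that of healthy rats as the difference HP over DM minus NH over NC. No library is shared between these contrasts, and for some genes their starting levels were far apart. The relative level of Gclc was 2.24 to 2.37 in NC and 0.789 to 0.848 in DM. That of Pck1 was 0.610 to 0.641 in NC and 1.43 to 1.45 in DM. Slc34a1 started nearer, at 0.662 to 0.700 in NC and 0.696 to 0.745 in DM. The part of the starting level in the differences was not tested. Within the classes, 10 of 28 genes (35.7%) differed, 6 with a higher value in the diabetic contrast (21.4%) and 4 with a lower one (14.3%). Under TMM 1 of 29 did (3.45%), which was Gclc, and 8 had an unadjusted p under 0.05. Relative to the nuclear class, Gclc was at -0.53 in healthy and 0.35 in diabetic kidney, a difference of 0.88 (SE 0.12, adjusted p = 3.2e-05 by edgeR). Glul was at -0.51 and 0.01, Hao2 at -0.19 and 0.24, Aadat at -0.19 and 0.22, and Slc3a1 at 0.05 and 0.32 (adjusted p of the differences at most 0.0031 by edgeR). Slc34a1 was at 0.63 in healthy and -0.04 in diabetic kidney, Pck1 at 0.63 and -0.02, and Gpx3 at 0.41 and 0.02 (adjusted p of the differences at most 0.012 by edgeR). The difference of Gpx3 was -0.39, and -0.25 without NH replicate 1. Cyp4a2 differed as well, at 0.26 and 0.01, a call lost without NC replicate 3 or NH replicate 3. ND2 was the mitochondrial gene that differed, at -0.09 and 0.17. Its call was lost in 6 of 7 alternatives. These were the class sum as reference, and leaving out any 1 NC library, NH replicate 2 or NH replicate 3. The nuclear geometric mean, by which nuclear values are divided, averaged 34592 in NC and 26310 in NH, but 46970 in DM and 48457 in HP. A nuclear gene whose counts held level in both contrasts therefore takes a difference below 0. Gpx3 counts averaged 57869 in NC and 57877 in NH, and 101885 in DM and 106746 in HP.

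Other genes did not show such a difference. Atp1b1 was at -0.21 in healthy and -0.33 in diabetic kidney relative to the nuclear class (difference -0.12, SE 0.075, adjusted p = 0.204 by edgeR). Eef1a1 was at -0.32 and -0.22 (difference 0.10, SE 0.058, adjusted p = 0.177 by edgeR), and neither passed. ND5 was at 0.34 and 0.31 relative to the mitochondrial class (difference -0.03, SE 0.099), also without passing. A p that misses the threshold does not show that the responses were alike.

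**Figure D5:**
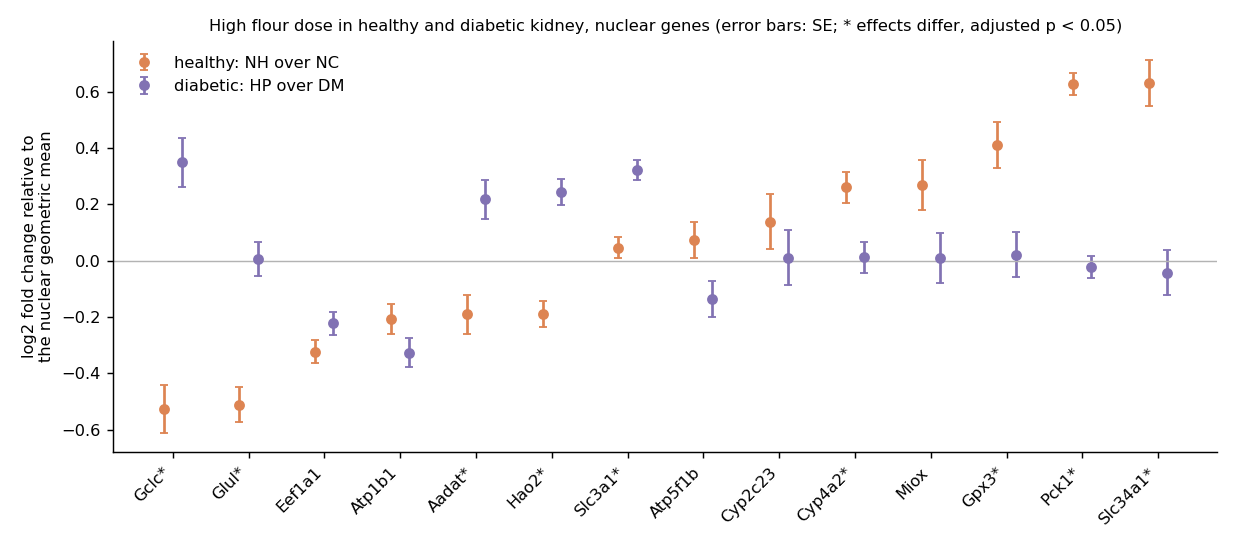
Log2 fold change relative to the nuclear geometric mean for the nuclear genes reported, in healthy kidney (NH over NC) and diabetic kidney (HP over DM), with SE bars from edgeR. Gclc lies at -0.53 and 0.35 and Slc34a1 at 0.63 and -0.04, while Eef1a1 lies at -0.32 and -0.22.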

How the data were processed

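Libraries of 18 rat kidney samples were made from 1 µg RNA with the NEBNext Ultra kit, which does not mark strand, per the labels' protocols. Named in the submitters' processing notes, with no role, are the build mm8 (a mouse build, although the identifiers are of rat), Bowtie 0.12.2 and CASAVA 1.7. Annotation, counter and rat build: not given in the sources used here. Positions follow the table. All 522 values are whole, so they were taken as counts per feature as deposited, although the authors titled the table as FPKM. The unit is therefore read from the values.

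From the counts, edgeR 4.0.16 in R 4.3.3 was run (quasi-likelihood F test, no dispersion trend, no filter, all 18 libraries, Benjamini-Hochberg adjustment at 0.05). TMM factors, or the geometric mean of the gene's class, were the offset. Each SE was taken as log2 fold change over root F. The unnamed feature belongs to neither class. DESeq2 1.42.0 and limma 3.58.1 with a pseudocount of 1 were alternatives. The class fit was also run on data simulated with a common spread for all genes and groups. That run does not cover the wider scatter of the NH libraries. Full values are given for genes called under all scalings or within the class. Some listed genes are not reported here by name, but they stay in every fit, sum and count. Members, gene lists and tests were chosen with earlier results of these data known. Ratios of single gene pairs were chosen after their values were seen and carry no test.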

Additional observations from a re-analysis of the deposited data

Results flagged for a closer look

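In an interaction test, the high-dose contrast differed between diabetic and healthy kidney for 1 feature under TMM and 10 genes within the classes. The values are log2 differences, HP over DM minus NH over NC, from edgeR. Gclc had 0.88 under TMM and 0.88 within the class, the value furthest from 0 in each. Above 0 within the class were also Glul at 0.52, Hao2 at 0.43, Aadat at 0.41, Slc3a1 at 0.28 and ND2 at 0.26. Below 0 were Slc34a1 at -0.67, Pck1 at -0.65, Gpx3 at -0.39 and Cyp4a2 at -0.25. Of these 10 class-relative differences, 8 held in all 7 alternatives run (the class sum, or 1 NC or NH library left out). Cyp4a2 and ND2 were the exceptions. All 7 alternatives keep a class reference. No difference below 0 was called under TMM or with unscaled counts. HP replicate 1 had a mitochondrial share of 88.7% against 85.8 and 84.8% in the other HP libraries, and its part in these differences was not tested.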

How the results depend on the processing

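Of the 15 calls under TMM, 8 held in all 16 alternatives (among them ND5, Gclc, Glul, Eef1a1, Atp1b1, Hao2 and Aadat). Nuclear scaling raised the count of changed features from 15 to 23, and leaving out 1 healthy library gave 11 to 16. Within the classes the count of 19 went from 14 to 19 over all alternatives, and from 15 to 19 without 1 healthy library. For the dose difference between diabetic and healthy rats, TMM gave 1 call, which was above 0. Median-of-ratios factors gave 5 calls, 1 above and 4 below 0. Nuclear scaling gave 9, 5 above and 4 below, and unscaled counts gave 7, all above 0. Within the classes there were 8 to 12 calls without 1 NC or NH library (no DM or HP library was left out). The difference of NH from NC in the mitochondrial to nuclear ratio lay between 0.42 and 0.59 in log2 without 1 healthy library.

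A turn of direction was counted only where TMM or the other setting made a call. By that rule direction turned against TMM for COX3 (0.28 with median-of-ratios factors and with DESeq2, 0.38 with nuclear scaling), Cyp4a2 (0.26 with nuclear scaling), Miox (0.27) and Cyp2c23 (0.0463 with median-of-ratios factors, 0.0462 with DESeq2, 0.14 with nuclear scaling). Signs also changed without a call, as for COX2 (0.29), Slc3a1 (0.05) and Atp5f1b (0.07) with nuclear scaling. With the mitochondrial geometric mean as library size, chosen after seeing the data, ATP6 turned to -0.14 and CYTB to -0.17. Summing ND4 with the unnamed feature was likewise added later and gave 11 changed features under TMM and 18 within the classes. Beyond the scaling itself the cause was not tested.

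Same-numbered NC and NH libraries had deviations correlated at 0.47, -0.133 and 0.249. Differently numbered libraries were not compared, so whether the numbers pair samples cannot be told from these values. With the replicate number as a block in the 6 healthy libraries, 13 features were called under TMM and 17 within the classes, against 14 and 17 without it, and ATP6 and CYTB were not called within their class under the block. The blocked log2 difference in the mitochondrial to nuclear ratio was 0.50 (exact p = 0.25, the smallest that 3 pairs allow). The 29 features all passed a filter on low counts, so that setting changed nothing. The short list and the unknown depth limit what a fall in counts can show.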

Other observations

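In the ratio of COX1 to COX2, the NC libraries (3.30 to 3.46) lay below those of every other group examined. The mean was 3.39 ± 0.086 in NC, 4.29 ± 0.331 in NH, 4.45 ± 0.0873 in DM and 4.52 ± 0.583 in HP (SD, n = 3). The ratio of Gpx3 to Gclc counts was 0.721 ± 0.021 in NC, 1.38 ± 0.116 in NH, 2.67 ± 0.0628 in DM and 2.14 ± 0.168 in HP. These ratios were chosen after their values were seen and were not tested.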
